A study of Mus musculus with 6 samples.

Results

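The expression of 43 interferon-stimulated antiviral and GTPase genes was examined in the mouse heart, out of 18019 genes in the expression table. They are given by a list of gene names, and each was found through its NCBI gene ID. The set has 34 antiviral genes, which are classically induced by type I interferon, and 9 GTPases, which are classically induced by interferon gamma. Both kinds are described apart.

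Heart tissue was collected 8 weeks after transverse aortic constriction (TAC), a surgical narrowing of the aorta that loads the left ventricle with pressure. The VNS-TAC group (3 libraries) had received rAAV-ChAT-hChR2(H134R)-GFP, a viral vector that carries a light-activated ion channel, in the dorsal vagal motor nucleus (DVMN), whose neurons send vagal fibres to the heart. The ChAT promoter, which is active in cholinergic neurons, drives the channel. The Ctrl-TAC group (3 libraries) had received rAAV-ChAT-GFP, without the channel. All mice are labelled WT and all had TAC, so the comparison is between hearts under the same pressure load, and no heart without TAC is analysed here. The VNS-TAC columns are named with the stem X10Hz_TAC. Beyond this name, the sources used here do not give light settings, nor strain, age or sex. They also do not say that each library came from its own animal, so the spread behind every p-value could be technical in part. VNS-TAC libraries are numbered as in the table's columns, which differ from the library numbers in the labels.

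Interferons are secreted proteins that put cells into an antiviral state. Type I interferons act through the receptor IFNAR and the kinases JAK1 and TYK2 to form a complex that contains STAT2 and IRF9 and binds the interferon-stimulated response element (ISRE). Interferon gamma acts through IFNGR, JAK1 and JAK2, and its response element is the gamma-activated site (GAS). In the heart this response is best known from viral myocarditis. The antiviral genes encode sensors of foreign nucleic acid, enzymes that degrade or modify viral RNA, and regulators of the response itself. The GTPases, the guanylate-binding proteins (GBPs) and the immunity-related GTPases (IRGs), act on the membranes around intracellular pathogens.

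Values are FPKM, fragments per kilobase of gene, scaled for the number of fragments in the library. Depth estimated from the steps of the low values was 13580000 to 15820000 fragments per library. The thinnest member values rested on about 31 fragments (Isg15) to 37 (Ifit1), and the counting error of such values is large. Pairwise correlations across all genes were 0.988 to 0.992 among Ctrl-TAC and 0.941 to 0.979 among VNS-TAC libraries, so the latter varied more. Differences were tested on log2(FPKM + 1), where the fold change of a weakly expressed gene comes out too small, with limma over the 11422 genes that had a mean of at least 1 FPKM. No gene passed a Benjamini-Hochberg adjusted p of 0.05 (0 of 11422, 0.0%). At an unadjusted p under 0.05 there were 1719 genes (15.0%), of which 1286 were lower in VNS-TAC (11.3% of all genes tested) and 433 were higher (3.79%). Higher genes made up 25.2% of these, and 53.4% after libraries were rescaled by size factors.

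Most antiviral genes were lower in VNS-TAC hearts than in Ctrl-TAC hearts, but none passed the adjusted threshold. Of 34, 28 had a lower and 6 a higher mean log2 value in VNS-TAC, and among the 33 that passed the expression filter the median log2 fold change was -0.35. The same median over all genes tested was -0.08, and 61.8% of all genes tested had a negative value. An unadjusted limma p under 0.05 was reached by 14 of the 33, all lower (42.4%, against 11.3% of all genes tested). In 13 of the 33 (39.4%), every VNS-TAC value lay below every Ctrl-TAC value, as in 17.4% of all genes tested. One tested gene, Ifi35, lay wholly above (8.01% of all genes tested). The smallest adjusted p among members was 0.156, for Rsad2. Ifi44 passed the filter only through its Ctrl-TAC values, so its difference decided that it was tested; without it, 13 of 32 (40.6%) reached that p and 12 did not overlap. Herc6 was under the filter and not tested. All 9 GTPases had a negative log2 fold change (median -0.32). Tgtp1 was at only -0.006 and Irgm1 at -0.08, with mean FPKM at 139% and 101% of control. With a pseudocount of 5 the count of negative values was 8 of 9. It was 7 of 9 after rescaling by size factors or quantiles and 6 of 9 with the GC trend removed. Of the 9, 1 was lower at an unadjusted p under 0.05 (Gbp3, 11.1%, against 11.3% of all genes tested).

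**Figure D1:**
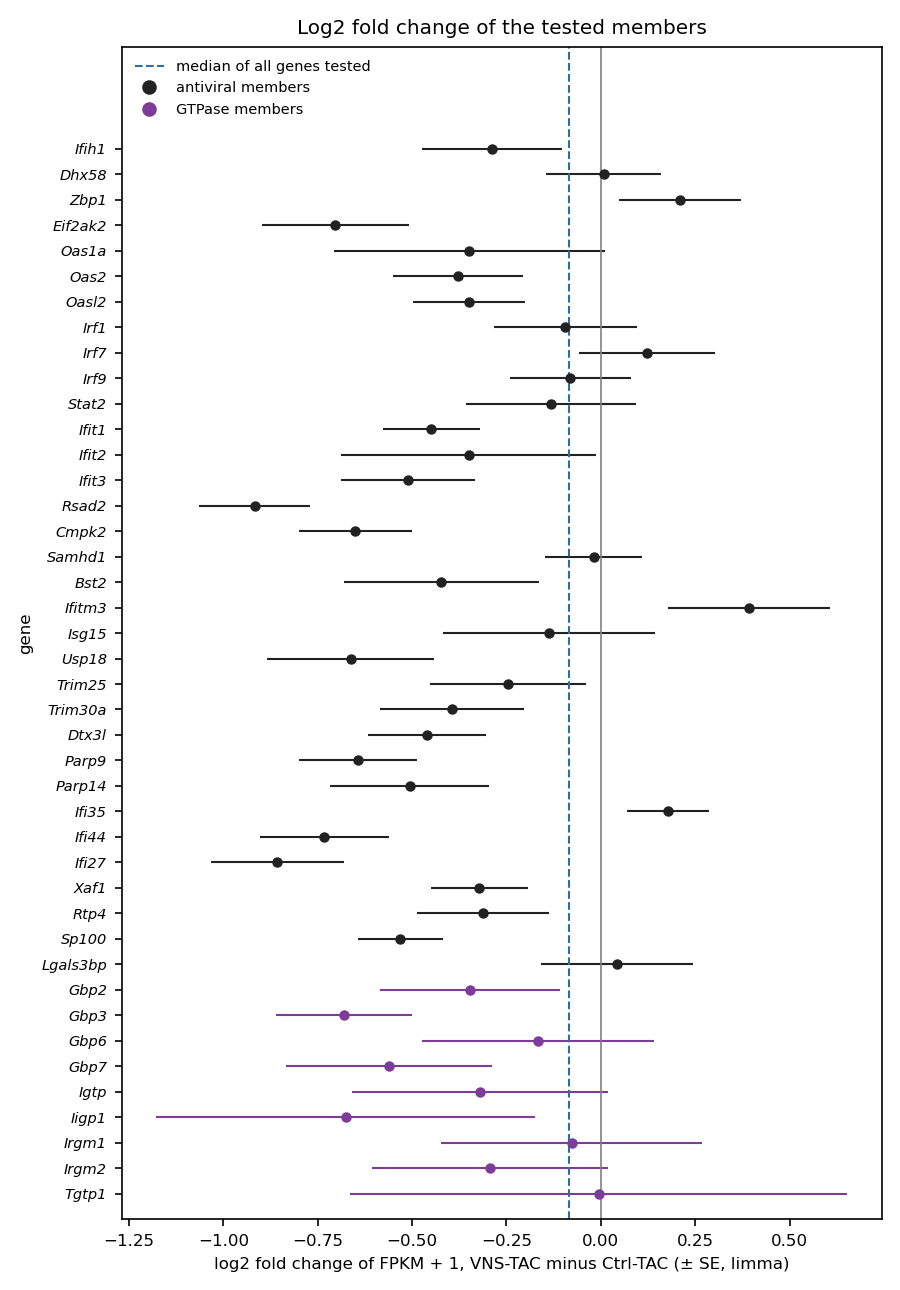
Log2 fold change of FPKM + 1 (horizontal axis, VNS-TAC minus Ctrl-TAC) with its standard error for the 42 tested members, antiviral genes in black and GTPases in purple; the dashed line is the median of all genes tested, -0.08. Rsad2, Ifi27 and Ifi44 lie farthest to the left, Ifitm3 farthest to the right, and the error bars are widest for Tgtp1 and Iigp1.

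The promoters show which members carry the letters of the 2 response elements. RefSeq sequences (GRCm38.p6) from 250 bases before to 50 bases after the annotated start were found for 33 of the 43 members. The ISRE was searched as GAAANNGAAA on both strands (TTTCNNTTTC on the other) and the GAS as TTCNNNGAA, which reads the same on both strands. An ISRE match was present in 12 of 31 antiviral windows (38.7%, 11 of 26 genes) and in 7 of 8 GTPase windows (87.5%, 7 of 7 genes), against 3.44% of 32851 windows in the table. A GAS match was present in 8 of 31 antiviral windows (25.8%) and 4 of 8 GTPase windows, against 8.3% of all windows. These are matches of letters and not measured sites. The sequences below come from 6 of the 8 role groups, each from the member with the smallest p among those with an ISRE match, since no PARP gene had a window and no gene of the other induced group had an ISRE match. They are read 5′ to 3′ on the gene's strand. Matches are in capitals.
Rsad2: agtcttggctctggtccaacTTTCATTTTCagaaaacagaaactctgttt
Eif2ak2: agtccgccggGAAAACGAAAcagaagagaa
Stat2: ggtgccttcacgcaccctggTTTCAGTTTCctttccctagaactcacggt
Trim30a: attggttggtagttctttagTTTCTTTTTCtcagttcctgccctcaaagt
Gbp3: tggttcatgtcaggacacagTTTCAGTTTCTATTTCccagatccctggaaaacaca
Igtp: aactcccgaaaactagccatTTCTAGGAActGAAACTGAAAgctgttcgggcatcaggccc
They lie at chr12:26456543-26456592 (minus strand) for Rsad2, chr17:78882535-78882564 (minus) for Eif2ak2 and chr10:128270256-128270305 (plus) for Stat2. Those of Trim30a (minus), Gbp3 (plus) and Igtp (plus) are at chr7:104465200-104465249, chr3:142559979-142560034 and chr11:58199491-58199551. The Gbp3 capitals hold 2 overlapping ISRE matches, and the Igtp capitals a GAS match followed by an ISRE match. The Eif2ak2 match lies after the annotated start and the others before it.

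Other promoters, and a stretch just after the start of Ifitm3, are shown because they hold several matches or share a layout; these 6 were chosen after the sequences were seen.
Irgm2: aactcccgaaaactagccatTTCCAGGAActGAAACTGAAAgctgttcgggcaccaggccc
Tgtp1: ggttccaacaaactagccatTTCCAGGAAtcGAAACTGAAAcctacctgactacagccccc
Irgm1: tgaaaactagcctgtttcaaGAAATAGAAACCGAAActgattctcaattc
Ifit1: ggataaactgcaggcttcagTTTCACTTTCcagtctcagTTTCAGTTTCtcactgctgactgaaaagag
Isg15: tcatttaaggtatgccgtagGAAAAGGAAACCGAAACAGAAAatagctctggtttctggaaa
Ifitm3: gGAAAAGGAAAcTTCTGAGAAACCGAAAc
The stretches of Irgm2 and Igtp differ at 2 of 61 positions, and that of Tgtp1 differs from Igtp at 22. In all 3 the ISRE match begins 11 bases after the start of the GAS match, which leaves 2 bases between them. That spacing and order occurs in 5 of 32851 windows (0.0152%), those of Igtp, Irgm2, Tgtp1, its near copy Tgtp2 and Gm12185. Isg15 holds 3 overlapping ISRE matches, Irgm1 2 overlapping ones and Ifit1 2 separate ones. In Ifitm3 the GAS match lies between 2 ISRE matches and overlaps the one after it. Among antiviral genes with a window, the median log2 fold change was -0.39 with an ISRE match (11 genes) and -0.32 without (15 genes). For the GAS the order was reversed, at -0.22 with a match (8 genes) and -0.37 without (18 genes). Both are descriptions with no test. Neither match was found in 11 members, among them Cmpk2, Sp100 and Ifi44, and 10 had no window in the table: Dhx58, Gbp6, Ifi27, Iigp1, Oas2, Parp14, Parp9, Rtp4, Usp18 and Zbp1.

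**Figure D2:**
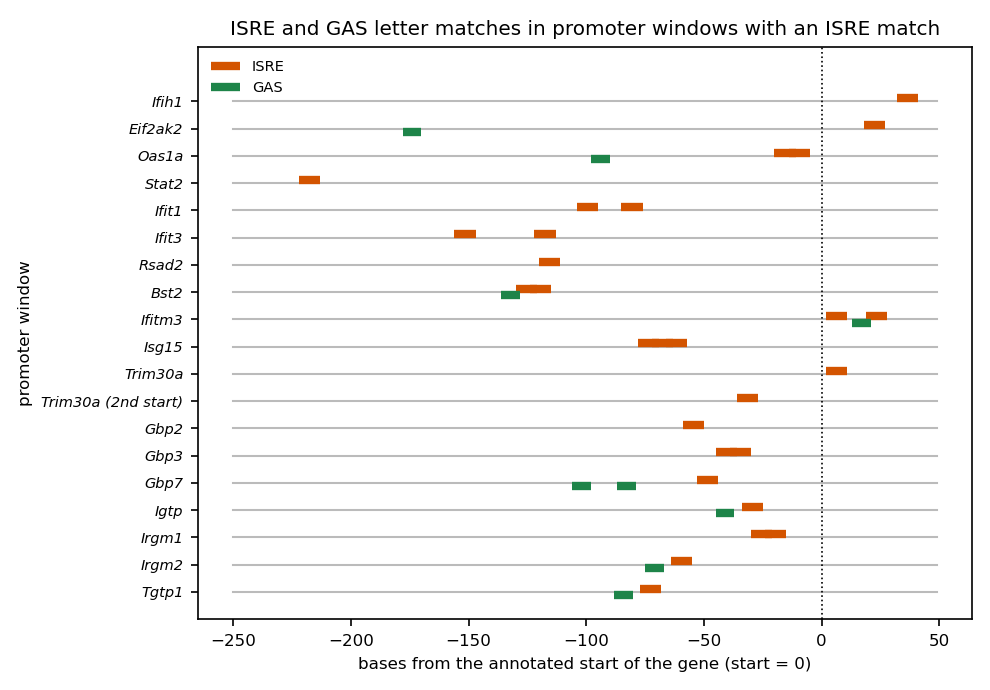
Position of the ISRE (orange) and GAS (green) letter matches in the 19 promoter windows of members that hold an ISRE match, in bases from the annotated start of the gene at 0. In Igtp, Irgm2 and Tgtp1 the GAS match stands directly before the ISRE match.

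Among the sensors of foreign nucleic acid and the OAS enzymes, the median log2 fold change was -0.35. At an unadjusted p under 0.05, 2 of 7 genes were lower (28.6%, against 11.3% of all genes tested). Eif2ak2 encodes PKR, a kinase that stops translation when it binds double-stranded RNA. In VNS-TAC libraries 1, 2 and 3 its levels were 1.10, 2.05 and 2.24 FPKM, against 4.03, 3.25 and 3.19 FPKM in Ctrl-TAC libraries 1, 2 and 3, an order kept in every list of values that follows. Its VNS-TAC mean was 51.5% of the Ctrl-TAC mean, with no overlap between groups (log2 fold change -0.70 ± 0.20, SE; limma adjusted p = 0.241). Oasl2, an OAS-like protein, was at 5.02, 4.05 and 3.53 FPKM against 5.67, 5.16 and 5.92 FPKM. Its values did not overlap either, by a small gap between VNS-TAC 1 and Ctrl-TAC 2 (-0.35 ± 0.15, adjusted p = 0.331). Oas2, which makes the 2'-5' oligoadenylates that activate RNase L, was the most abundant of the group at 3.32, 4.26 and 5.03 FPKM against 5.59, 6.70 and 4.93 FPKM. VNS-TAC 3 overlapped the controls there (-0.38 ± 0.17, adjusted p = 0.349). Zbp1, a sensor of Z-form nucleic acid, was higher on average, at 1.76, 1.14 and 1.47 FPKM against 1.14, 0.84 and 1.40 FPKM, with overlapping groups (0.21 ± 0.16, adjusted p = 0.544). Dhx58 (LGP2), a regulator of the RIG-I-like receptors, was at 1.37, 0.82 and 1.06 FPKM against 1.05, 1.26 and 0.89 FPKM, and its groups overlapped throughout (0.01, or -0.03 with every library rescaled to the same sum). Ifih1, which encodes the RNA sensor MDA5, and Oas1a had log2 fold changes of -0.29 and -0.35 with overlapping groups. Oas1a shares 57.6% of its 50-base words with Oas1g, so its level is uncertain, and its log2 fold change was -0.80 without VNS-TAC 1, -0.19 without VNS-TAC 2 and -0.06 without VNS-TAC 3.

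The 4 transcription factors of the pathway differed little in their means. Their median log2 fold change was -0.09, close to the median of all genes tested, and none had an unadjusted p under 0.05. Irf1, a factor induced strongly by interferon gamma, was the most abundant of them at 12.6, 9.80 and 15.6 FPKM against 13.6, 11.5 and 15.4 FPKM (-0.09 ± 0.19, adjusted p = 0.824). Irf7, which drives further production of type I interferon, was at 10.8, 6.54 and 7.69 FPKM against 7.32, 7.26 and 7.72 FPKM (0.12 ± 0.18, adjusted p = 0.746). VNS-TAC 1 alone stood above the controls for Irf7. The log2 fold changes of Irf9 and Stat2 were -0.08 and -0.13, and that of Irf9 was 0.01 after rescaling by size factors. All 4 had their lowest value of the 6 libraries in VNS-TAC 2.

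The effectors that act on viral RNA, entry or release included Rsad2, the member with the largest difference on the log2(FPKM + 1) scale (with a pseudocount of 0.1, Ifi44 was at -1.39 and Rsad2 at -1.12). Their median log2 fold change was -0.44. At an unadjusted p under 0.05, 4 of 8 were lower, against 11.3% of all genes tested. Rsad2 encodes viperin, a radical SAM enzyme that makes a chain-terminating nucleotide. It was at 2.28, 2.94 and 3.18 FPKM against 5.49, 6.43 and 6.54 FPKM, so all VNS-TAC values were well below all Ctrl-TAC values. The means were 2.80 ± 0.466 and 6.15 ± 0.577 FPKM (SD, n = 3 each), or 45.5% of control (log2 fold change -0.92 ± 0.15, limma adjusted p = 0.156). Cmpk2, a mitochondrial nucleotide kinase whose gene lies 12665 bases from Rsad2 on chromosome 12 (both within chr12:26442743-26479837), was at 2.04, 2.06 and 2.21 FPKM against 3.40, 3.52 and 4.80 FPKM. These groups were also apart (-0.65 ± 0.15, adjusted p = 0.207).

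The IFIT proteins bind foreign RNA ends and block translation. Ifit1 was at 1.02, 0.96 and 1.22 FPKM against 1.81, 1.67 and 1.98 FPKM (-0.45 ± 0.13, adjusted p = 0.244). Its log2 fold change was -0.195 with the GC trend removed. Its annotated span lies wholly within that of Ifit1bl1 (an overlap of 9121 bases), which was at 0.62, 1.76 and 3.87 FPKM against 1.95, 1.54 and 1.22 FPKM. Ifit3, a partner that stabilises IFIT complexes, was at 3.73, 3.07 and 3.57 FPKM against 5.17, 4.23 and 6.89 FPKM (-0.51 ± 0.18, adjusted p = 0.265). Neither the groups of Ifit1 nor those of Ifit3 overlapped. Ifit3 shares 51.2% of its 50-base words with its near copy Ifit3b, so its level is uncertain; the sum of both was 5.04, 4.41 and 4.33 FPKM against 7.35, 6.34 and 8.86 FPKM, again without overlap. Ifit2, their neighbour on chromosome 19, did overlap, at 1.41, 2.60 and 5.71 FPKM against 4.12, 3.95 and 3.76 FPKM. It was lowest in VNS-TAC 1 and highest in VNS-TAC 3.

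Ifitm3, which hinders viral entry at endosomal membranes, was by far the most abundant member and ran the other way. It was at 201, 122.61 and 212 FPKM against 141, 129 and 126 FPKM, high in VNS-TAC 1 and 3 and slightly below the controls in VNS-TAC 2 (0.39 ± 0.21, adjusted p = 0.403). With libraries weighted by their noise its log2 fold change was -0.02. Bst2 (tetherin), which holds budding virus at the cell surface, was at 30.8, 14.5 and 16.8 FPKM against 26.7, 24.7 and 28.8 FPKM. Its VNS-TAC 1 value was the highest of all and the other 2 VNS-TAC values the lowest (-0.42 ± 0.26, adjusted p = 0.450). Samhd1, which depletes nucleotides, had nearly equal means (98.5% of control).

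**Figure D3:**
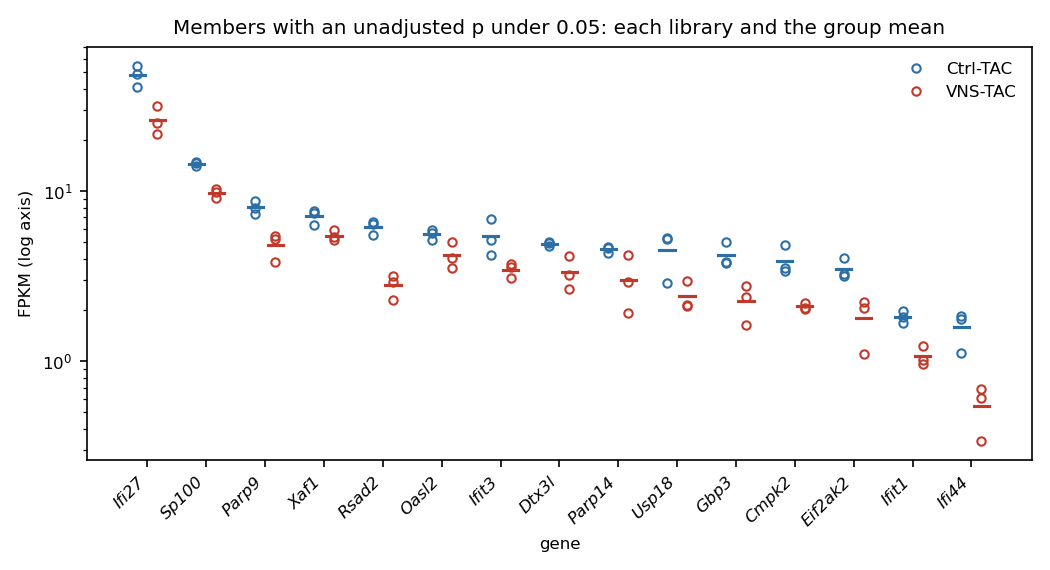
FPKM on a log axis for the 15 members with an unadjusted p under 0.05, one circle per library (VNS-TAC red, Ctrl-TAC blue) and the group mean as a line. The circles of the groups are apart for every gene but Usp18, whose Ctrl-TAC 2 value of 2.89 FPKM lies just under VNS-TAC 1 at 2.97.

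The ISG15 system attaches the ubiquitin-like protein ISG15 to other proteins and removes it. Usp18, the protease that removes ISG15 and also restrains IFNAR signalling, was at 2.97, 2.11 and 2.14 FPKM against 5.33, 2.89 and 5.25 FPKM. It was the only one of the 14 antiviral genes at p under 0.05 whose groups overlapped, because Ctrl-TAC 2 was low (-0.66 ± 0.22, adjusted p = 0.264). Dtx3l, an E3 ubiquitin ligase that works with PARP9, was at 2.64, 3.20 and 4.15 FPKM against 4.77, 4.94 and 4.99 FPKM, with no overlap (-0.46 ± 0.16, adjusted p = 0.264). Trim25, the ligase that activates RIG-I, was the most abundant of the group at 5.71, 8.54 and 10.8 FPKM against 9.65, 9.81 and 9.93 FPKM. Its Ctrl-TAC values were nearly equal and its VNS-TAC values ran from well below to above them (-0.25 ± 0.21, adjusted p = 0.569). Isg15 itself had a log2 fold change of -0.14 and Trim30a one of -0.39, both with overlapping groups. Herc6, the main ISG15 ligase of the mouse, had group means of 0.557 ± 0.162 and 1.20 ± 0.131 FPKM (SD, n = 3 each) without overlap, and was not tested.

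Both PARP enzymes, which attach ADP-ribose to proteins, were lower in every VNS-TAC library than in any control, as were 17.4% of all genes tested. Parp9 was at 3.82, 5.21 and 5.43 FPKM against 8.80, 7.96 and 7.36 FPKM (-0.64 ± 0.16, adjusted p = 0.214). Parp14 was at 1.93, 2.91 and 4.20 FPKM against 4.65, 4.69 and 4.31 FPKM (-0.51 ± 0.21, adjusted p = 0.325). VNS-TAC 3 came close to the controls for Parp14. Dtx3l and Parp9 lie head to head on chromosome 16 and overlap by 558 bases, so reads in that stretch could count for either.

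Of 7 other induced genes, 4 were lower without overlap (57.1%, against 17.4% of all genes tested). Ifi27, a mitochondrial and nuclear-envelope protein, was the most abundant of them at 31.8, 25.1 and 21.7 FPKM against 54.6, 40.8 and 48.6 FPKM, or 54.5% of control (-0.86 ± 0.18, adjusted p = 0.190). The annotated span of Ifi27 lies wholly within that of Ifi27l2a (an overlap of 6057 bases). Of the 50-base words of Ifi27, 0.0% occur in other genes' transcripts. Ifi27l2a was at 67.68, 37.11 and 18.97 FPKM against 42.22, 30.32 and 40.35 FPKM (log2 fold change -0.03). How reads were assigned between these genes was not tested. Ifi44 was at 0.34, 0.69 and 0.61 FPKM against 1.85, 1.77 and 1.12 FPKM (-0.73 ± 0.17, adjusted p = 0.209). Sp100, a component of nuclear PML bodies that silences viral genomes, was at 9.07, 10.2 and 9.91 FPKM against 14.9, 14.1 and 14.5 FPKM. Its replicates were tight in both groups (67.2% of control, -0.53 ± 0.11, adjusted p = 0.190). Xaf1, a pro-apoptotic protein, was at 5.37, 5.19 and 5.88 FPKM against 7.62, 6.29 and 7.44 FPKM (-0.32 ± 0.13, adjusted p = 0.310). Ifi35 went the other way in every library, at 18.2, 16.6 and 16.8 FPKM against 15.0, 14.9 and 15.4 FPKM, a small difference (0.18 ± 0.11, adjusted p = 0.451). Lgals3bp, a secreted galectin ligand, was at 29.98, 17.4 and 19.4 FPKM against 21.6, 19.4 and 22.2 FPKM, with only VNS-TAC 1 high (0.04, or -0.03 with every library rescaled to the same sum). Rtp4 had a log2 fold change of -0.31 with overlapping groups.

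The GBP genes were lower on average (median log2 fold change -0.45). Gbp3 was the only GTPase gene without overlap (11.1% of the GTPases, against 17.4% of all genes tested). GBPs assemble on pathogen membranes and open them. Gbp3 was at 1.64, 2.40 and 2.77 FPKM against 3.84, 3.76 and 5.04 FPKM (-0.68 ± 0.18, adjusted p = 0.232). Gbp6 was the most abundant GBP at 7.27, 19.98 and 10.8 FPKM against 12.8, 13.7 and 13.3 FPKM. It is the one GTPase for which VNS-TAC 2 was the highest of all libraries (-0.17 ± 0.31, adjusted p = 0.806), and 70.7% of its 50-base words occur in other genes, so its level is uncertain. Gbp2 and Gbp7 had log2 fold changes of -0.35 and -0.56 with overlapping groups.

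The 5 IRG genes did not separate the groups. Iigp1 was at 2.90, 8.09 and 17.4 FPKM against 11.5, 11.2 and 16.4 FPKM (-0.68 ± 0.50, adjusted p = 0.527). Irgm1, a regulator that keeps other IRG proteins off the cell's own membranes, was at 7.19, 8.35 and 18.9 FPKM against 10.7, 8.75 and 14.7 FPKM (-0.08 ± 0.35, adjusted p = 0.925). Igtp and Irgm2 had log2 fold changes of -0.32 and -0.29. Tgtp1, named after its values were seen, had the widest spread, at 0.91, 1.92 and 11.2 FPKM against 2.06, 2.39 and 5.64 FPKM. Because 81.2% of its 50-base words are shared, mostly with Tgtp2, the sum of both is a safer measure: 4.10, 5.96 and 22.0 FPKM against 8.07, 6.04 and 18.2 FPKM.

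The IRG genes shared a pattern across libraries. Relative to the Ctrl-TAC mean on the log2 scale, all 5 lay below the lowest control in VNS-TAC 1 and in VNS-TAC 2. The share of all genes tested that did so was not counted. In VNS-TAC 3 all 5 lay above the Ctrl-TAC mean, by 0.21 to 1.57. Within the controls all 5 were highest in Ctrl-TAC 3, by 0.33 to 0.70. Over the 9 GTPases the median deviation was -0.78, -0.61 and 0.21 across VNS-TAC libraries, against -0.15, -0.20 and 0.37 across Ctrl-TAC libraries. The median GTPase log2 fold change was -0.64 without VNS-TAC 3 and -0.10 without Ctrl-TAC 3, so 1 library of either group changes its size.

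For the antiviral genes all 3 VNS-TAC libraries were low. Their median deviation was -0.43 in VNS-TAC 1, -0.43 in VNS-TAC 2 and -0.22 in VNS-TAC 3, against -0.11, -0.07 and -0.02 for all genes tested. Below the lowest control were 21, 31 and 19 of the 34 genes, and above the highest control 9, 1 and 7. The same counts per library were not made over all genes tested, so they show nothing particular to the members. Among these 34 genes VNS-TAC 2 had the most uniform shift, while in VNS-TAC 1 and 3 some genes were high. Ifit2, Irf1, Stat2 and Trim25 were above all controls in VNS-TAC 3 and below the Ctrl-TAC mean in VNS-TAC 2. Across the 34 genes the deviations of VNS-TAC 2 and 3 had a Spearman correlation of 0.74, and those of VNS-TAC 1 had 0.44 with VNS-TAC 2 and 0.22 with VNS-TAC 3. These correlations are across genes, which are not independent, and all share the same control mean.

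**Figure D4:**
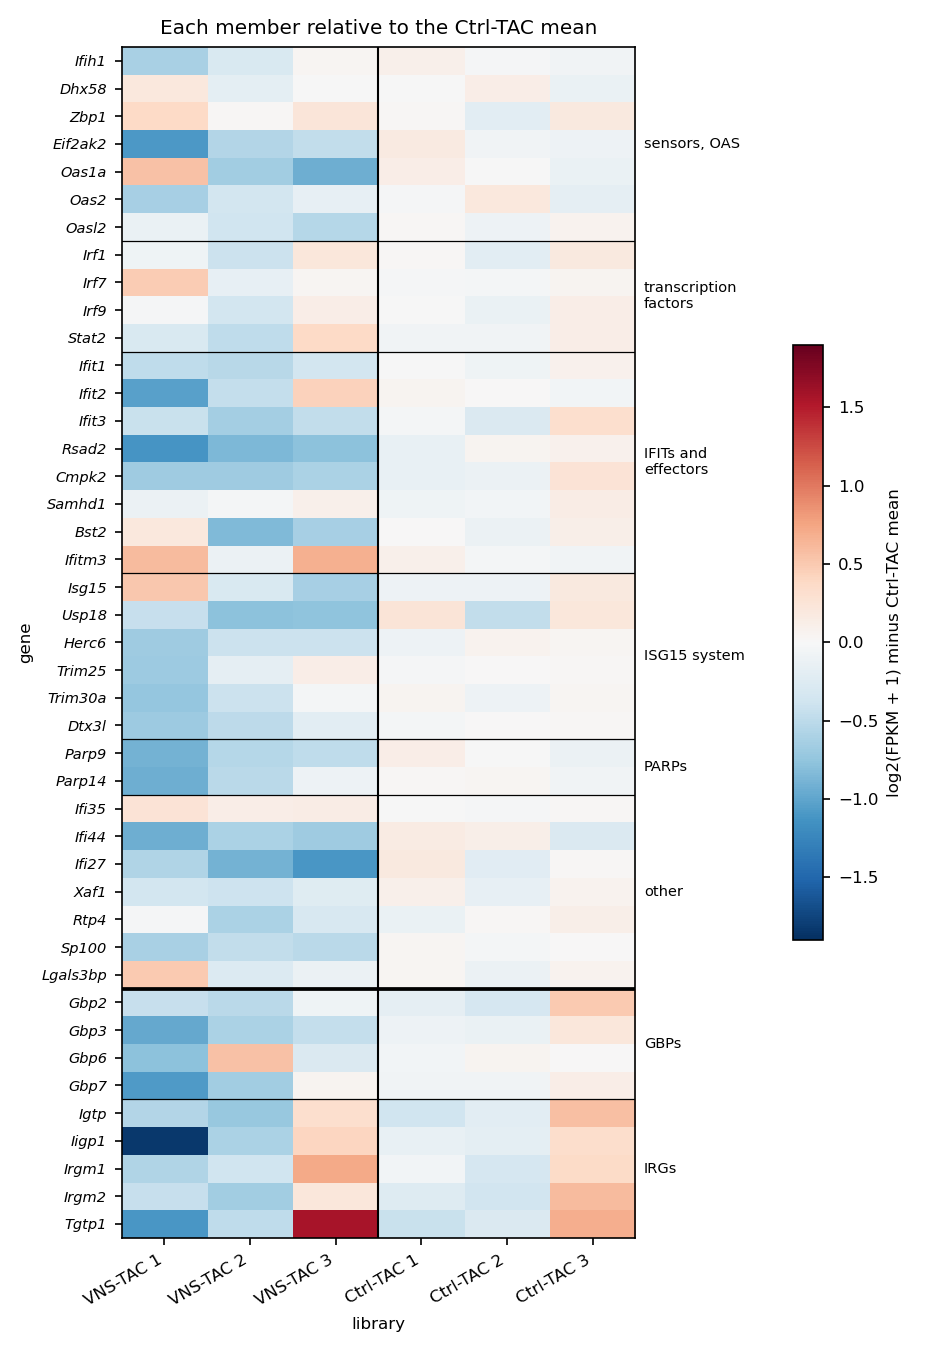
Deviation of log2(FPKM + 1) from the Ctrl-TAC mean for each member (rows, by role) in each library (columns), blue below and red above. The IRG rows are blue in VNS-TAC 1 and 2 and red in VNS-TAC 3, and the rows of Rsad2, Cmpk2 and Sp100 are blue in all 3 VNS-TAC libraries.

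Base composition and transcript length moved with the member values, most strongly in VNS-TAC 1. Over the 43 members, GC content of the transcripts and the deviation had a Spearman correlation of 0.78 in VNS-TAC 1, 0.20 in VNS-TAC 2 and 0.00 in VNS-TAC 3, against 0.58, 0.25 and 0.04 over 11319 genes with a GC value. In Ctrl-TAC 1, 2 and 3 it was 0.10, -0.16 and 0.06 over the members and -0.01, -0.32 and 0.28 over the 11319 genes. GC content and the log2 fold change itself had a correlation of 0.50 over the members and 0.39 over the 11319 genes. In VNS-TAC 1 the 9 antiviral genes above every control (Bst2, Dhx58, Ifi35, Ifitm3, Irf7, Isg15, Lgals3bp, Oas1a and Zbp1) had GC contents of 51.7 to 56.9%. The 21 below every control had 39.9 to 52.6%. Exon length and the deviation had a Spearman correlation of -0.48 over the members in VNS-TAC 1, 0.23 in VNS-TAC 2 and 0.10 in VNS-TAC 3, against -0.39, -0.13 and -0.01 over all genes with a value. The part of length in the member values was not tested. Median GC was 48.5% for antiviral genes, 45.8% for GTPases and 50.6% for all genes tested. After the trend of GC was removed from each library, the antiviral median was -0.20 and 9 of 33 had an unadjusted p under 0.05 and were lower (27.3%, against 8.04% of all genes tested in that fit). Rsad2, Cmpk2, Eif2ak2, Parp9, Ifi27, Sp100 and Gbp3 had an unadjusted p under 0.05 in every alternative that tested them. So did Ifi44 in the 14 that tested it, but it passed the filter only through its Ctrl-TAC values. The share of all genes that did so was not counted. With Ctrl-TAC 1, Ctrl-TAC 3 or VNS-TAC 2 left out, 7, 8 and 8 antiviral genes were lower at an unadjusted p under 0.05, against 14 with all libraries. These were 21.9%, 24.2% and 24.2% of the antiviral genes tested, against 5.44%, 8.6% and 10.6% of all genes tested in the same fits.

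**Figure D5:**
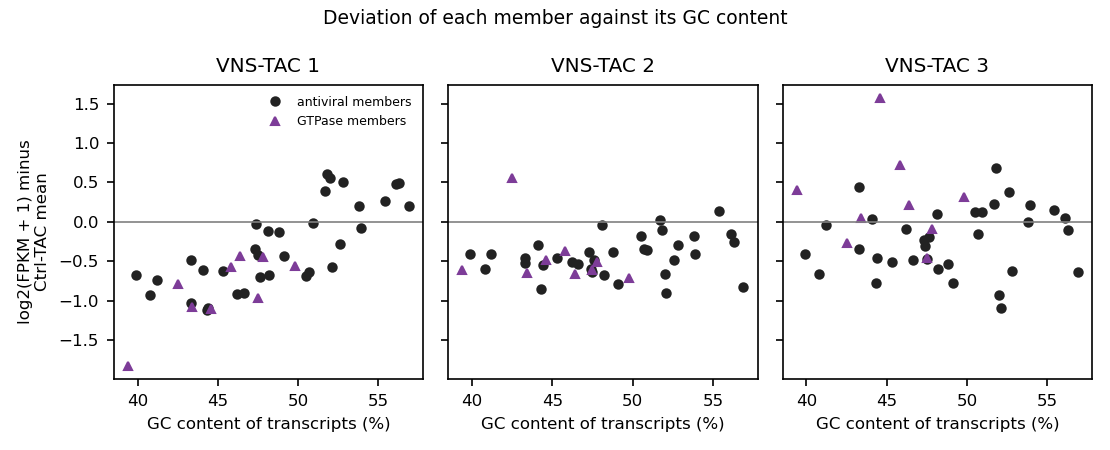
GC content of the transcripts (horizontal axis, percent) against the deviation of log2(FPKM + 1) from the Ctrl-TAC mean for the members, by VNS-TAC library. The points climb with GC in VNS-TAC 1 (Spearman 0.78) and lie level in VNS-TAC 3 (0.00).

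Upstream genes of the pathway, listed by name, gave few differences. Of the ligand genes listed, only Ifng and the interleukin gene Il27 have rows, both under the filter. Ifng was at 0.05, 0 and 0 FPKM against 0.06, 0 and 0 FPKM. The other 10 listed ligands are not analysed here. Of 9 receptors and kinases, 1 was lower at an unadjusted p under 0.05 (11.1%, against 11.3% of all genes tested). Ifngr2, a chain of the interferon gamma receptor, was at 82.0, 77.6 and 43.1 FPKM against 111, 103 and 114 FPKM (-0.74 ± 0.24, adjusted p = 0.258). Its VNS-TAC values lay below all controls, lowest in VNS-TAC 3, the library in which the IRG genes were high. Ifngr1, the other chain, was at 23.6, 30.3 and 28.0 FPKM against 35.0, 35.8 and 30.9 FPKM (adjusted p = 0.340). None of 11 signal transducers and feedback genes passed p under 0.05. Irf5, a factor that acts downstream of Toll-like receptors, was at 3.04, 1.75 and 1.28 FPKM against 3.07, 2.42 and 3.55 FPKM (-0.44 ± 0.23, adjusted p = 0.394). Its groups overlapped.

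Of 8 sensor-pathway genes tested, 5 had a negative log2 fold change, as did 61.8% of all genes tested. At an unadjusted p under 0.05, 3 (Traf3, Ddx58 and Tlr3) were lower (37.5%, against 11.3% of all genes tested). None passed the adjusted threshold. Traf3, an adaptor that leads to interferon production, was at 4.97, 4.51 and 3.42 FPKM against 6.66, 6.53 and 6.22 FPKM (-0.51 ± 0.15, adjusted p = 0.245). Ddx58, the sensor RIG-I, was at 3.09, 2.88 and 2.72 FPKM against 4.01, 3.92 and 3.91 FPKM (-0.35 ± 0.12, adjusted p = 0.264). Among 28 tested interferon-induced genes outside the members, 6 were lower (21.4%, against 11.3% of all genes tested) and 1 higher (Ifitm1) at an unadjusted p under 0.05. Ifi203 and Mndal, neighbouring genes of the AIM2-like receptor family, had lower log2(FPKM + 1) fold changes than any member. Ifi203 was at 2.92, 4.26 and 2.85 FPKM against 9.30, 11.9 and 7.16 FPKM (-1.26 ± 0.21, adjusted p = 0.156). Mndal was at 2.57, 5.51 and 2.55 FPKM against 10.6, 11.7 and 10.1 FPKM (-1.44 ± 0.24, adjusted p = 0.163). Ifitm1 was at 9.79, 10.8 and 25.8 FPKM against 4.50, 3.84 and 3.98 FPKM (1.56 ± 0.33, adjusted p = 0.190). Of 7 other interferon-inducible GTPases tested, 6 had a negative log2 fold change, as did 61.8% of all genes tested. At an unadjusted p under 0.05, 3 were lower (42.9%, against 11.3% of all genes tested). Of the 3, 9930111J21Rik1 passed the filter only through its Ctrl-TAC values, and without it the count is 2 of 6 (33.3%). The large GTPase Gvin1 was at 0.73, 2.16 and 4.01 FPKM against 6.13, 6.22 and 5.05 FPKM (-1.17 ± 0.35, adjusted p = 0.249). The gene 9930111J21Rik1 was at 0.48, 0.81 and 0.93 FPKM against 1.57, 1.86 and 1.04 FPKM.

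Fewer cells of a type and less RNA per cell cannot be told apart in these bulk libraries, and markers of several cell types moved. Of all genes tested, 61.8% had a negative log2 fold change, 17.4% lay wholly below the controls and 8.01% wholly above. The cardiomyocyte markers summed to 27186 to 36731 FPKM in VNS-TAC and 28077 to 29620 in Ctrl-TAC. The neutrophil markers, where 6 of 6 were higher in every VNS-TAC library, summed to 46.2 to 101 FPKM against 1.83 to 5.36. Macrophage markers summed to 116 to 230.04 FPKM against 166 to 175, with 7 of 7 lower in mean log2 value and 1 without overlap. The log2 fold changes of Cd68, C1qb and C1qa were small, at -0.03, -0.07 and -0.09. Cd68 was at 11.15, 6.30 and 6.63 FPKM against 7.95, 7.29 and 8.76 FPKM. Endothelial markers summed to 209 to 269.9 FPKM against 259 to 295, with 5 of 6 lower on average and 2 without overlap (Cdh5 and Tie1). Fibroblast markers summed to 254 to 434 FPKM against 365 to 421, with 5 of 5 lower on average and 1 without overlap (Dpt). Most of the fibroblast sum was Dcn, at 152, 241 and 388 FPKM against 279, 285 and 257 FPKM, while Col1a1 was at 41.8, 23.1 and 13.4 FPKM against 56.0, 50.4 and 40.2 FPKM. The markers of T and NK cells, which make interferon gamma, summed to only 1.49 to 1.92 FPKM against 1.60 to 2.18, none of the 9 passed the filter, and Ncr1 was at 0 in every VNS-TAC library. The list of plasmacytoid dendritic cells, which make type I interferon, summed to 10.6 to 15.2 FPKM against 17.4 to 22.8, nearly all of it Tcf4 and Irf8, while the defining Siglech and Ccr9 were near 0. B cell markers summed to 0.44 to 1.39 FPKM against 0.70 to 1.42, and red cell markers to 25.0 to 1497 FPKM against 182 to 576. The part of these cells in the member values was not tested.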

How the data were processed

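Per the labels' protocols, oligo-dT beads enriched the mRNA. The deposited table gives FPKM values, per the file headers, made by the authors to 2 decimals for 18019 NCBI gene IDs in 6 columns. The submitters' processing notes name HISAT, featureCounts 1.5.0-p3, DESeq 1.8.3 and GRCm38 without their role, and annotation, strand and multi-mapping settings were not given in the sources used here. Groups came from sample titles, because a treatment tag reads VNS for controls too. The Ctrl-TAC columns were matched by library name; the VNS-TAC columns, numbered 1 to 3, match the group but not single samples. FPKM hides library size, so depth was estimated from value steps and used in no test.

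Symbols came from RefSeq for 17890 IDs and GENCODE M21 for 15, and 114 had none. Gene coordinates and promoter windows are RefSeq GRCm38.p6. Values were analysed as log2(FPKM + 1) for genes that averaged 1 FPKM or more over the 6 libraries, with limma 3.58.1 in R 4.3.3 (intensity trend, 4 residual degrees of freedom, Benjamini-Hochberg adjustment over 11422 genes, threshold 0.05), tested on simulated data first. Tables were made with Python 3.11.15, pandas 2.3.3, numpy 2.4.6 and matplotlib 3.10.9. Near copies were found as shares of 50-base words occurring in other genes' GENCODE M21 transcripts. Deviations are from the Ctrl-TAC mean of log2 values. GC content was known for 99.1% of tested genes.

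The members and lists were chosen with earlier results of these data known. Values in every library are given for members with an unadjusted p under 0.05 and for the smallest p and highest mean of each role group. They are also given for tested members opposite to the median of their kind, and for the 2 smallest p of each other list. Others named with values (Tgtp1, Ifit2, Bst2, Ifitm1, Ifng, Ifi27l2a, Ifit1bl1) were chosen after their values were seen. A gene that the rule takes is left out of the text. Alternatives were other pseudocounts, filters, rescalings, limma settings, array weights (the gene-by-gene estimate), removal of the GC trend, and each library left out in turn.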

Additional observations from a re-analysis of the deposited data

How the results depend on the processing

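No gene passed the adjusted threshold with the settings reported, and 1 passed at a filter of 5 FPKM, 2 each with size factors, quantile normalization or the GC trend removed, 1016 with array weights, and 0 to 3 with one library left out. Array weights were 0.246, 2.82 and 0.247 for VNS-TAC 1 to 3, so the VNS-TAC side of this fit rested mostly on VNS-TAC 2. With them 13 of 33 antiviral genes and 2 of 9 GTPases (Gbp3 and Gbp7) passed, against 1016 of 11422 genes tested. Among calls at an unadjusted p under 0.05 over all genes, the share higher in VNS-TAC was 25.2%, against 53.4% with size factors, 54.4% with quantile normalization, 42.4% with the GC trend removed and 10.7% with every library at the same sum. The median of all genes tested moved from -0.08 to 0.00, 0.01, 0.00 and -0.15 in that order.

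The antiviral median of -0.35 was -0.18 with a pseudocount of 5, -0.11 at a filter of 5 FPKM (which tests 14 antiviral genes), -0.21 with quantile normalization and -0.20 with the GC trend removed. It was -0.43 to -0.29 with one library left out. The count of antiviral genes lower at an unadjusted p under 0.05, 14 as reported, was 4 at a filter of 5 FPKM, 8 with quantile normalization, 24 with array weights and 9 with the GC trend removed, and 7 to 19 with 1 library left out. The reported share was 42.4%, against 11.3% of all genes tested. In the order given, these settings had antiviral shares of 28.6%, 24.2%, 72.7% and 27.3%, against 10.7%, 6.65%, 22.0% and 8.04% of all genes tested. With 1 library left out the shares were 21.9% to 57.6%, against 5.11% to 16.8%. The GTPase median ranged from -0.64 to -0.10, and its count at p under 0.05 was 0 at a filter of 5 FPKM, 3 with array weights and 1 to 3 with 1 library left out. The GTPase shares were 0.0%, 33.3% and 11.1% to 33.3%, against 10.7%, 22.0% and 5.11% to 16.8% of all genes tested. The cause of these shifts was not tested.

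Of 42 tested members, 29 kept their sign in every alternative and 13 reversed at least once. Dhx58 was -0.034 with the same sum, -0.154 with array weights and -0.011 with GC removed. Array weights also gave Irf7 -0.088, Ifitm3 -0.017, Lgals3bp -0.185 (-0.031 with the same sum) and Gbp6 0.41 (0.11 with GC removed). Irf9 was 0.010 with size factors and 0.012 with quantile normalization. Size factors, quantile normalization and GC removal gave 0.072, 0.075 and 0.092 for Samhd1, 0.013, 0.037 and 0.101 for Irgm1 and 0.052, 0.14 and 0.21 for Tgtp1, which was 0.085 with a pseudocount of 5. With one library left out the ranges were -0.09 to 0.10 for Dhx58, -0.53 to 0.14 for Gbp6, -0.25 to 0.065 for Irf1, -0.059 to 0.26 for Irf7, -0.19 to 0.056 for Irf9, -0.47 to 0.17 for Irgm1, -0.55 to 0.007 for Irgm2, -0.46 to 0.11 for Isg15, -0.18 to 0.19 for Lgals3bp, -0.078 to 0.051 for Samhd1, -0.38 to 0.044 for Stat2 and -0.80 to 0.54 for Tgtp1.

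No paired analysis was possible because VNS-TAC columns carry other numbers than their library names in the labels, so no such column can be tied to a replicate number and no replicate block was run.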
